A study of Mus musculus with 6 samples.

Results

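The mitochondrial genome of the mouse carries 37 genes, and all of them are among the 54838 genes counted in the atria of 6 old mice. They were taken as every gene whose mouse symbol starts with mt-, which gave 13 protein-coding genes (mRNA), 2 ribosomal RNA genes (rRNA) and 22 transfer RNA genes (tRNA). The study set out to compare atrial gene expression in old mice that lack protein kinase C epsilon, encoded by Prkce, with that in old wild-type (WT) controls. There are 3 knockout (KO) and 3 WT libraries, each named as a separate biological replicate. Per the labels, KO mice were of JAX stock 004189 and WT mice of the C57BL/6J strain. Mice of both sexes were used, at an average age of 20.9 ± 0.43 months, and the labels do not say what the second number measures. All samples were whole atria, which hold several cell types, so fewer cells of a type and less RNA per cell cannot be told apart.

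The labels give 2 genotypes for 4 of the 6 libraries. The name of a library, which also heads its column of counts, gives one genotype, and the sample title, the genotype field and the mouse line give the other. The names used below, such as KO replicate 1, take the group from the library name and the number from the sample title. The genotype field puts KO replicate 1 and WT replicates 2 and 3 into the KO group, and WT replicate 1 and KO replicates 2 and 3 into the WT group. Every comparison was made under both readings.

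Mitochondrial DNA is a small circle that is read from both of its strands into long transcripts. In these, tRNAs lie between most mRNAs and rRNAs, and cutting out the tRNAs frees the other RNAs. The 13 mRNAs encode core subunits of respiratory complexes I, III and IV and of the ATP synthase, complex V, while the 2 rRNAs and the tRNAs build and serve the ribosomes of the organelle. In heart muscle these complexes make most of the ATP, and mitochondrial mRNAs are a large part of all mRNA. Pieces of mitochondrial DNA have also been copied into nuclear chromosomes in the course of evolution, and reads of such a copy cannot be told from reads of the original where the sequences are identical.

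The genes are packed so closely that some share bases with a neighbour. The sequences printed here were read from the GENCODE M21 transcripts of the build GRCm38, all 5′ to 3′ on the strand of the gene. The end of mt-Atp8 (chrM:7865-7969, plus strand) and the end of mt-Nd4l (chrM:10116-10173, plus strand) are shown because they run into the next gene, and their capitals mark the 43 bases shared with mt-Atp6 and the 7 bases shared with mt-Nd4.
mt-Atp8: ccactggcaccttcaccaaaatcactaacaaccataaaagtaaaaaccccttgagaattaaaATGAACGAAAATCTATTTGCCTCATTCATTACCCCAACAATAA
mt-Nd4l: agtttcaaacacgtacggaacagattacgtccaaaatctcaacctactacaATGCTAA
The capitals begin with the start codon of the next gene and end with the stop codon of the gene itself. On opposite strands, mt-Nd5 and mt-Nd6 share 14 bases. How the authors' counting treated a read that lies on 2 genes is not given in the sources used here.

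Of the 13 mRNA genes, 10 end in a complete stop codon and 3 end in a lone T, which the poly(A) tail completes to TAA. The last 30 bases of these 3 are shown, with the end of mt-Nd1 for contrast, and the stop codon or its part is in capitals. They lie at chrM:9361-9390 for mt-Co3, chrM:11515-11544 for mt-Nd4, chrM:15259-15288 for mt-Cytb and chrM:3678-3707 for mt-Nd1, all on the plus strand.
mt-Co3 end: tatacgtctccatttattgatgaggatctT
mt-Nd4 end: gtccaaaactaattacaggcctgacaataT
mt-Cytb end: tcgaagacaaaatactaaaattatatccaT
mt-Nd1 end: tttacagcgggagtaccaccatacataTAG

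A stretch of 4653 bases, chrM:6390-11042, runs along a copy in the nuclear genome, and 13 of the 37 genes lie in it wholly or in part. The copy lies at chr1:24611535-24616197 on the minus strand, where the annotation has 7 pseudogenes in the order of the mitochondrial genes. Of these 7 pseudogenes, 5 are identical to their mitochondrial gene over the aligned bases and 2 differ at a single base. Identity was read over these pseudogenes only, which leaves out mt-Atp8 and the 5 tRNA genes of the stretch, for which it was not tested. The start of mt-Co2 (chrM:7013-7072, plus strand) and of its pseudogene Gm28661 (chr1:24615506-24615565, minus strand) show an identical pair, which is identical over 681 bases in all.
mt-Co2: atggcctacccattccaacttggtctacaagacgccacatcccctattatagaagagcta
Gm28661: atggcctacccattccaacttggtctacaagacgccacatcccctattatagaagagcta
The pairs that differ are shown around the differing base, in capitals. They are mt-Co1 (chrM:6390-6423, plus strand) with Gm29216 (chr1:24616155-24616188, minus strand), and mt-Nd3 (chrM:9459-9491, plus strand) with Gm28438 (chr1:24613087-24613119, minus strand).
mt-Co1: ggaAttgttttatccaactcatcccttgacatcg
Gm29216: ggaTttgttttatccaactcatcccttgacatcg
mt-Nd3: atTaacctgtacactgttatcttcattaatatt
Gm28438: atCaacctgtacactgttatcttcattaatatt
Counted from 1 at the first base of the mitochondrial gene, with that gene's base first, the differences are A1066T for mt-Co1 and T3C for mt-Nd3. Wholly inside the stretch lie 6 mRNA genes, mt-Co2, mt-Atp8, mt-Atp6, mt-Co3, mt-Nd3 and mt-Nd4l, and 5 tRNA genes, mt-Ts1, mt-Td, mt-Tk, mt-Tg and mt-Tr. Of mt-Co1 31.3% and of mt-Nd4 63.6% lie inside it.

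The tRNA genes the results turn on are shown whole. They are the 3 with the highest mean level (mt-Tl1, mt-Tc, mt-Tp), the 3 without a count (mt-Tf, mt-Td, mt-Tk) and mt-Tg, which had the lowest p in the comparison of KO with WT libraries. In gene order on chrM, mt-Tf lies at chrM:1-68, mt-Tl1 at chrM:2676-2750, mt-Td at chrM:6942-7011, mt-Tk at chrM:7700-7764 and mt-Tg at chrM:9391-9458, all on the plus strand, and mt-Tc at chrM:5192-5257 and mt-Tp at chrM:15356-15422 on the minus strand.
mt-Tl1: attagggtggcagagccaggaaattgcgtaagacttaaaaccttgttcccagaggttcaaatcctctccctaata
mt-Tc: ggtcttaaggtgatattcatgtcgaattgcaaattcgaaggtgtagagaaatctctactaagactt
mt-Tp: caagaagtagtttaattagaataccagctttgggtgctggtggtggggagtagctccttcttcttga
mt-Tf: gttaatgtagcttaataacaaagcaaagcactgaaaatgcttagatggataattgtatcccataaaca
mt-Td: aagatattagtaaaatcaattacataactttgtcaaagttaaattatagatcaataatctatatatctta
mt-Tk: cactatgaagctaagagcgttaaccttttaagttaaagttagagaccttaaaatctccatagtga
mt-Tg: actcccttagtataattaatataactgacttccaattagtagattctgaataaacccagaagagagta
None of these 7 shares a base with a neighbouring gene.

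The libraries hold 14015308 to 20152576 counts in the KO group and 11574206 to 24138824 in the WT group. Levels below are CPM, the count of a gene per 1000000 counts of its library. Prkce, the targeted gene, had 9.20, 5.07 and 29.0 CPM in KO replicates 1 to 3, against 37.1, 12.01 and 28.5 CPM in WT replicates 1 to 3. KO replicate 3 and WT replicate 2 thus went against the library name, while KO replicate 2 and WT replicate 3 went against the genotype field, and neither reading places all 6 libraries by their Prkce level. Libraries of both sexes are mixed unevenly by library name: the summed level of 4 Y-linked genes was 80.0 to 126 CPM in the 3 KO libraries, against 1.11, 1.12 and 138 CPM in the WT libraries. By the genotype field both groups held high and low values, at 126, 1.12 and 138 CPM in KO and 82.8, 80.0 and 1.11 CPM in WT libraries. The tissue label held, with 5 of 5 atrial cardiomyocyte markers counted and a summed level of 36193 to 40989 CPM in KO and 36155 to 38045 CPM in WT libraries, and with 4 ventricular markers at a summed 91.7 to 421 CPM in KO and 116 to 564 CPM in WT libraries. By the genotype field the ventricular sums did not overlap, at 421, 564 and 286 CPM in KO and 104, 91.7 and 116 CPM in WT libraries. The part of this difference in the comparisons by that field was not tested. Without a label that settles the genotypes, the p-values only set a difference between groups against the variation between these libraries, under each reading.

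The mitochondrial genome gave a large and steady part of all counts, in KO and WT libraries alike. The share was 17.8%, 18.7% and 18.9% in KO replicates 1 to 3, against 18.5%, 17.4% and 19.5% in WT replicates 1 to 3. The KO libraries lie within the range of the WT libraries. The mean was 18.5% ± 0.610 in KO and 18.5% ± 1.06 in WT libraries (SD, n = 3 each; two-sided exact permutation test, p = 1). Under the genotype field the means were 18.2% ± 1.13 in KO and 18.7% ± 0.233 in WT libraries, which overlapped too (SD, n = 3 each; exact permutation test, p = 0.5). With 3 libraries against 3 the exact test cannot go below 0.1, so none of the share tests could pass a threshold of 0.05.

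The mRNAs made up nearly all of this share, and they varied little. They held 16.2%, 17.0% and 16.7% of all counts in KO replicates 1 to 3, against 17.4%, 15.5% and 16.8% in WT replicates 1 to 3. Both the highest and the lowest value belong to WT libraries. The rRNAs held 1.501%, 1.63% and 2.16% in the KO and 1.07%, 1.89% and 2.66% in the WT libraries, in the order of the replicates. Here too the extremes are WT libraries, WT replicate 3 at the top and WT replicate 1 at the bottom. The tRNA genes held 0.0366%, 0.0365% and 0.0496% in the KO and 0.0419%, 0.0395% and 0.0568% in the WT libraries. WT replicate 3 was the highest and KO replicate 3 the next, in tRNA as in rRNA. Counting error is far below the span of each class over the libraries, though not below the difference between KO replicates 1 and 2 in tRNA. The widest exact 95% binomial interval (Clopper-Pearson) of any library reached 0.0218 percentage points to either side for the whole share. It reached 0.00785 for rRNA and 0.00115 for tRNA, and covers counting error only.

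In every class the values of KO and WT libraries overlapped. The rRNA share averaged 1.76% ± 0.352 in KO and 1.87% ± 0.797 in WT libraries (SD, n = 3 each; exact permutation test, p = 0.9), and the tRNA share 0.0409% ± 0.00755 in KO and 0.0461% ± 0.00936 in WT libraries (SD, n = 3 each; exact permutation test, p = 0.5). Under the genotype field, the mRNA share averaged 16.2% ± 0.666 in KO and 17.0% ± 0.321 in WT libraries (SD, n = 3 each; exact permutation test, p = 0.2). The share of mt-Nd6 among mitochondrial mRNA counts averaged 3.98% ± 0.175 in KO and 4.12% ± 0.397 in WT libraries (SD, n = 3 each; exact permutation test, p = 0.9). Of the 10 share tests that were run, 5 under each reading, that of mRNA by the genotype field had the lowest p, and all 10 had an adjusted p of 1 (Benjamini-Hochberg). Taken as pairs of the same replicate number, the tRNA share by library name was lower in the KO library in 3 of 3 pairs, and by the genotype field the rRNA share and the mt-Nd6 share were higher in the KO library in 3 of 3 pairs. Each of these had p = 0.25 (exact permutation test within pairs), the smallest that 3 pairs allow.

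**Figure D1:**
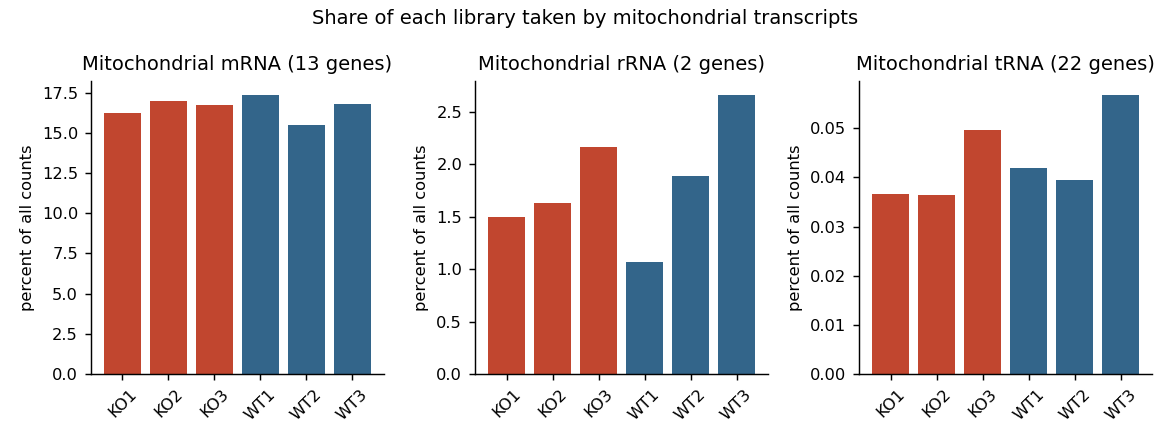
Share of all counts, in percent, held by the mRNA, rRNA and tRNA genes of the mitochondrial genome in each library. KO libraries stand left of WT libraries by library name, and each panel has its own axis. The KO libraries lie within the span of the WT libraries for mRNA (16.2% to 17.0% in KO, 15.5% to 17.4% in WT) and for rRNA.

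Of the mRNAs, mt-Co1, mt-Cytb, mt-Nd1 and mt-Nd4 carried most of the counts. Together they held 75.4% to 76.8% of the mitochondrial counts in KO and 70.4% to 76.1% in WT libraries. mt-Co1 (chrM:5328-6872) encodes the catalytic subunit of complex IV, and had the most counts of the mitochondrial genes in every library. It had 56489, 61086 and 61305 CPM in KO replicates 1 to 3, against 63644, 47737 and 57980 CPM in WT replicates 1 to 3. WT replicate 2 was the lowest and WT replicate 1 the highest, with the KO libraries between them. By the genotype field the groups did not overlap, at 56489, 47737 and 57980 CPM in KO and 61086, 61305 and 63644 CPM in WT libraries. The log2 fold change of mt-Co1 in that reading was -0.17 (SE 0.15), at an adjusted p of 0.918 (edgeR's quasi-likelihood test). mt-Cytb (chrM:14145-15288) is the only mitochondrially encoded subunit of complex III. By library name it had 37137, 40707 and 38968 CPM in the KO and 36925, 39929 and 35397 CPM in the WT libraries. KO and WT libraries overlapped, and the coefficient of variation (CV, the SD over the mean) across all 6 was 5.30%.

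The subunits of complex I differed in how much they varied. mt-Nd1 (chrM:2751-3707), a subunit of the membrane arm, had 24900, 23445 and 25050 CPM in KO and 24438, 24155 and 27188 CPM in WT libraries. mt-Nd6 (chrM:13552-14070, minus strand) is the only mRNA encoded on the light strand. It had 6594, 6956 and 6313 CPM in KO and 6534, 7036 and 6806 CPM in WT libraries, a CV of 4.10%, the lowest of the 34 genes with a count. For both genes the groups overlap. The libraries keep no strand information, so the counts on mt-Nd6 may include RNA of the opposite strand. mt-Nd2 (chrM:3914-4951) was alike in the 3 KO libraries, at 10740, 10752 and 10530 CPM, but was 14220, 10404 and 14914 CPM in the WT libraries. WT replicates 1 and 3 were above all other libraries, and WT replicate 2 was below them. mt-Nd5 (chrM:11742-13565) had 8339, 8892 and 7276 CPM in KO and 12124, 6374 and 8278 CPM in WT libraries. Its CV was 23.0%, with WT replicate 1 the highest and WT replicate 2 the lowest.

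Per length, the order of the abundant genes could be read only in part, since neighbours in it lay within each other's spread. Over all 6 libraries mt-Co1 had 37566 ± 3660 CPM per kb and mt-Cytb 33372 ± 1769 CPM per kb (SD, n = 6), and mt-Co1 was the higher in 5 of 6 libraries. The level of mt-Nd1, 25980 ± 1333 CPM per kb, was clear of both. Next were mt-Nd6 at 12922 ± 529, mt-Nd4 at 12607 ± 818 and mt-Nd2 at 11490 ± 1986 CPM per kb (SD, n = 6), which do not differ beyond their spread. The rRNAs followed with 7418 ± 2164 for mt-Rnr2 and 6761 ± 2268 CPM per kb for mt-Rnr1 (SD, n = 6), and mt-Nd5 had 4686 ± 1079 CPM per kb. If all counts of mt-Co1 and mt-Nd4 are laid on their bases outside the copied stretch (1062 and 502 bases), they come to 54652 ± 5325 CPM per kb for mt-Co1 and 34605 ± 2245 CPM per kb for mt-Nd4 (SD, n = 6). mt-Nd4 would then rank with mt-Cytb and above mt-Nd1, so its place in the order depends on how reads inside the stretch were counted.

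**Figure D2:**
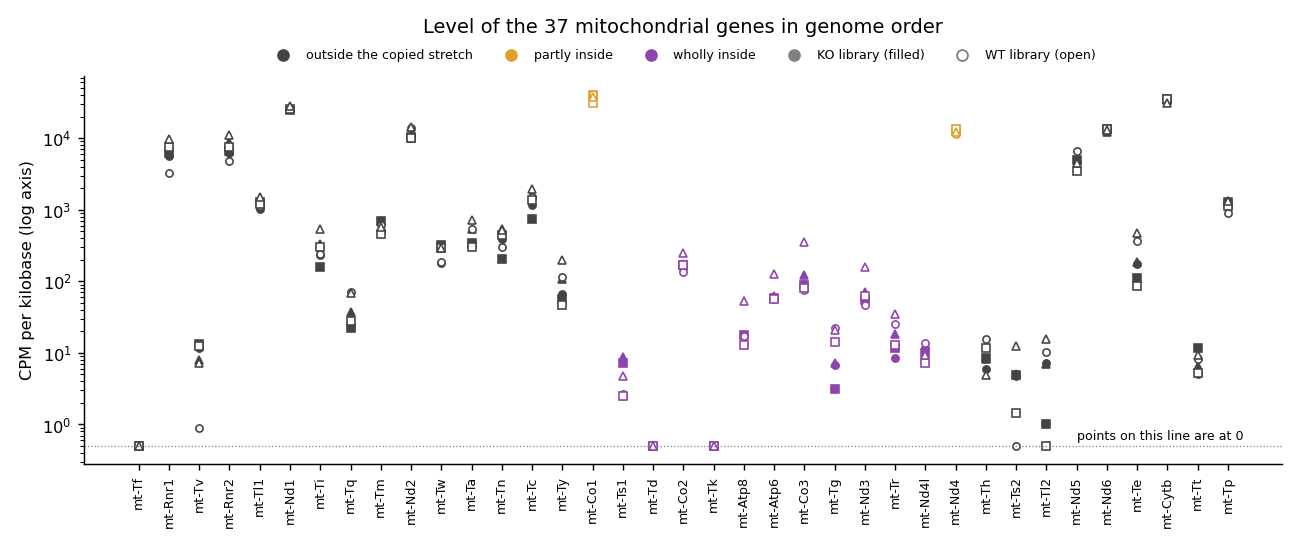
CPM per kilobase (log axis) of the 37 mitochondrial genes in genome order, a point for each library, filled for KO and open for WT, with the shape showing the replicate number; colours mark genes outside, partly inside and wholly inside the copied stretch, and points on the dotted line are at 0. The 6 mRNA genes wholly inside the stretch average 10.1 to 175 CPM per kb, while the 7 other mRNA genes average 4686 CPM per kb or more.

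The 6 mRNAs wholly inside the copied stretch had far fewer counts than the 7 others. Their means over 6 libraries ran from 3.00 CPM for mt-Nd4l to 120 CPM for mt-Co2, against 6706 CPM or more for the others. They encode subunits of complex IV (mt-Co2, which takes electrons from cytochrome c, and mt-Co3), of complex V (mt-Atp6, part of the proton channel, and mt-Atp8) and of complex I (mt-Nd3 and mt-Nd4l). In all they held 0.0240%, 0.0250% and 0.0288% of all counts in KO replicates 1 to 3, against 0.0212%, 0.0243% and 0.0601% in WT replicates 1 to 3. The 7 nuclear pseudogenes together had 262, 294 and 285 CPM in the KO and 256, 281 and 318 CPM in the WT libraries. Reads that match a gene and its copy equally well cannot be placed, and how they were treated is not given in the sources used here. The values of these 6 genes, of the 5 tRNA genes in the stretch and of part of mt-Co1 and mt-Nd4 are therefore uncertain, and they were not read as levels of the transcripts.

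In WT replicate 3, 5 of these 6 mRNAs stood above the other libraries. mt-Co3 (chrM:8607-9390) had 71.3, 68.7 and 95.9 CPM in KO replicates 1 to 3, against 59.5, 62.5 and 274 CPM in WT replicates 1 to 3. The value in WT replicate 3 was 3.83 times the mean of the other 5 libraries, while WT replicates 1 and 2 were below all 3 KO libraries. Its identical pseudogene Gm28437 had 49.7, 59.2 and 64.1 CPM in KO and 51.7, 58.6 and 65.0 CPM in WT libraries, so the pseudogene did not share the high value of mt-Co3 in WT replicate 3. mt-Atp6 had 40.4, 39.5 and 42.2 CPM in KO and 38.1, 37.9 and 85.3 CPM in WT libraries, and mt-Nd3 had 18.8, 19.0 and 24.5 CPM in KO and 16.2, 21.7 and 55.4 CPM in WT libraries. Without WT replicate 3, the WT libraries were the lower ones for mt-Atp6 and overlapped the KO libraries for mt-Nd3. For mt-Atp8 and mt-Co2, WT replicate 3 was also the highest, at 3.38 and 1.57 times the mean of the other 5. mt-Nd4l, at 2.16 to 4.06 CPM over all libraries, was at 0.927 times that mean. The count of mt-Co3 over that of Gm28437 was 1.16 to 1.497 in KO libraries, against 1.15, 1.07 and 4.22 in WT libraries.

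**Figure D3:**
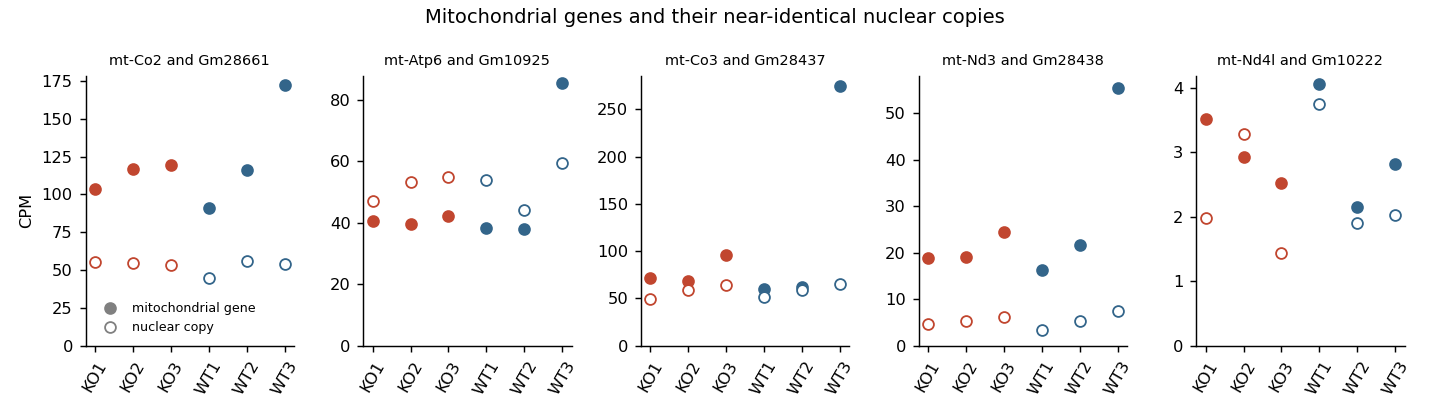
CPM of 5 mitochondrial mRNA genes wholly inside the stretch (filled) and of the nuclear pseudogene of each (open) in every library, KO left of WT; each panel has its own axis, and KO1 stands for KO replicate 1. Gm28437 stays at 49.7 to 64.1 CPM in KO and 51.7 to 65.0 CPM in WT, while mt-Co3 reaches 274 CPM in WT replicate 3.

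The rRNAs varied more than any abundant mRNA, and did so between libraries of the same group. mt-Rnr1 (chrM:70-1024), the RNA of the small ribosomal subunit, had 5367, 5908 and 7870 CPM in KO replicates 1 to 3, against 3102, 7173 and 9321 CPM in WT replicates 1 to 3. mt-Rnr2 (chrM:1094-2675), that of the large subunit, had 9643, 10382 and 13775 CPM in the KO and 7567, 11751 and 17290 CPM in the WT libraries. For both, the KO libraries lie between the lowest and the highest WT library, and the CVs were 33.5% and 29.2%. The ratio of mt-Rnr2 to mt-Rnr1 counts was 1.75 to 1.80 in KO libraries, against 2.44, 1.64 and 1.85 in WT libraries. WT replicate 1 thus had the fewest rRNA counts and the highest ratio. The same library had the highest mt-Nd5, with a ratio of mt-Nd5 to mt-Cytb counts of 0.328, against 0.187 to 0.225 in KO libraries and 0.160 and 0.234 in the other 2 WT libraries.

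Among the tRNA genes, 11 had at least 100 counts in some library and 11 had fewer in every library. Of the 11 with more counts, 7 are encoded on the light strand, which carries 8 tRNA genes in all, and none lies in the copied stretch. Of the 11 with fewer counts, 10 are on the heavy strand and 5 lie in the stretch. The levels of the 11 with more counts averaged 2.99 to 94.3 CPM over all libraries, and those of the other 11 were at most 1.26 CPM. For mt-Tf, mt-Td and mt-Tk no library had a count. A count of 0 allows a level of up to 0.124 CPM in the deepest library and 0.259 CPM in the shallowest (3 counts of the total), in counting error only. Whether a count on a tRNA gene came from the mature tRNA or from a longer RNA that spans it was not tested. The libraries keep no strand information, so these counts do not show which strand the RNA came from.

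The highest tRNA genes were those for leucine (mt-Tl1), cysteine (mt-Tc) and proline (mt-Tp), whose sequences stand above. mt-Tl1 had 76.7, 95.3 and 108 CPM in KO replicates 1 to 3, against 85.8, 88.9 and 111 CPM in WT replicates 1 to 3. mt-Tc had 77.6, 48.9 and 107 CPM in KO and 98.6, 90.7 and 128 CPM in WT libraries, and mt-Tp had 74.2, 85.2 and 87.3 CPM in KO and 60.8, 76.2 and 87.3 CPM in WT libraries. For all 3 the groups overlap. Their surroundings differ: mt-Tl1 abuts mt-Rnr2 and mt-Nd1 with no base between, mt-Tc is set apart from mt-Tn by 32 bases, and mt-Tp is the last gene before the control region. mt-Te, the glutamate tRNA gene, varied more, with 11.9, 7.71 and 13.0 CPM in KO and 25.3, 5.88 and 32.7 CPM in WT libraries.

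Over all 34 genes with a count, the highest library was most often WT replicate 3, for 18 genes, and then WT replicate 1, for 6. KO replicates 2 and 3 were the highest for 4 genes each, WT replicate 2 for 2 and KO replicate 1 for none. How often each library is the highest over all genes is not given here, so this order is not read as particular to mitochondrial genes. WT replicate 3 is also the deepest library, and its part in the result was tested only by leaving it out. The summed level of the cardiomyocyte markers was 22069 to 29707 CPM in KO and 25042 to 28117 CPM in WT libraries, with WT replicate 3 at 28059 CPM; the part of cell content in the levels was not tested.

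**Figure D4:**
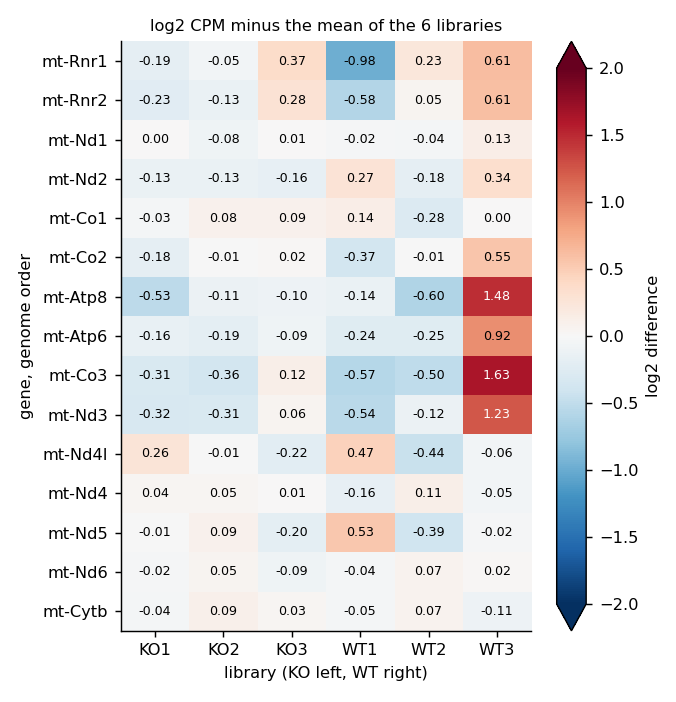
Level (log2 CPM) of each mRNA and rRNA in each library minus its mean over the 6 libraries, with genes in genome order down the page and KO libraries left of WT libraries; red is above and blue below the mean. WT replicate 3 is high in the rRNAs and in mt-Atp8, mt-Atp6, mt-Co3 and mt-Nd3, and WT replicate 1 is low in the rRNAs and high in mt-Nd5.

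No mitochondrial gene passed the test between KO and WT libraries under either reading. After a filter on low counts 29 of the 37 could be tested (all 13 mRNAs, both rRNAs and 14 tRNAs), in a fit over 14708 genes. By library name, 0 of the 29 passed an adjusted p of 0.05 (edgeR's quasi-likelihood test, Benjamini-Hochberg), against a background of 0% of all genes tested, 0 of 14708. At an unadjusted p under 0.05 edgeR gave 2 of the 29, mt-Tg and mt-Tq, against a background of 1.49%, and DESeq2 and limma-voom gave 2 each. In the reading by the genotype field, 0 of the 29 passed as well, against a background of 0.0136%, which is 2 genes, or 0.347%, 51 genes, where replicate numbers were fitted as pairs. Without adjustment edgeR gave 1 of the 29, mt-Tm, against a background of 5.69%, DESeq2 gave 2 and limma-voom gave 1.

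The balance of higher and lower genes turned when a single library was left out. By library name 7 of the 29 genes had a higher and 22 a lower fitted level in KO libraries, with a median log2 fold change of -0.17, against -0.02 over all genes tested. Without WT replicate 3, 18 of 30 genes were higher in KO libraries and the median was 0.06. With the genotype field 21 were higher and 8 lower in KO libraries, with a median of 0.13 against -0.01 over all genes. Without WT replicate 3, 10 of 30 were higher and the median was -0.14. Of all 14708 genes tested, 6694 were higher in KO libraries by library name and 7075 by the genotype field.

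The glycine tRNA gene mt-Tg had the lowest p by library name, on very few counts. It had 0.455, 0.214 and 0.496 CPM in KO replicates 1 to 3, which are 8, 3 and 10 counts, against 1.54, 0.950 and 1.41 CPM in WT replicates 1 to 3, which are 25, 11 and 34 counts. The KO libraries were all below the WT libraries, yet the log2 fold change of KO over WT of -1.72 (SE 0.54) had an adjusted p of 0.99993 (edgeR's quasi-likelihood test). It was 0.38 (SE 0.70) by the genotype field, and mt-Tg lies in the copied stretch. The glutamine tRNA gene mt-Tq had 1.76, 1.57 and 2.63 CPM in KO and 5.04, 1.99 and 4.93 CPM in WT libraries, and the groups overlap. The methionine tRNA gene mt-Tm, by the genotype field, had 35.1, 31.6 and 39.8 CPM in KO and 47.6, 48.7 and 42.5 CPM in WT libraries. These did not overlap. In the main fit of that reading, without pairs and with the filter, the lowest adjusted p of any mitochondrial gene was 0.868 (edgeR's quasi-likelihood test). With replicate numbers fitted as pairs, the lowest was 0.29 (edgeR's quasi-likelihood test).

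For the longer RNAs the estimates were as uncertain as the spread between libraries implies. The log2 fold change of KO over WT was -0.05 (SE 0.38) for mt-Rnr1 and -0.14 (SE 0.29) for mt-Rnr2 by library name, and 0.40 (SE 0.34) and 0.32 (SE 0.28) by the genotype field. With replicate numbers fitted as pairs, mt-Rnr1 by the genotype field was at 0.46, with an unadjusted p of 0.0147 and an adjusted p of 0.377 (edgeR's quasi-likelihood test). For mt-Nd2 it was -0.31 (SE 0.18) by library name and 0.06 (SE 0.20) by the genotype field. For mt-Co3, which WT replicate 3 dominates, it was -0.80 (SE 0.70) by library name and 0.93 (SE 0.67) by the genotype field. Over the 13 mRNAs the fold changes ran from -0.83 to 0.08 by library name and from -0.27 to 0.93 by the genotype field.

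**Figure D5:**
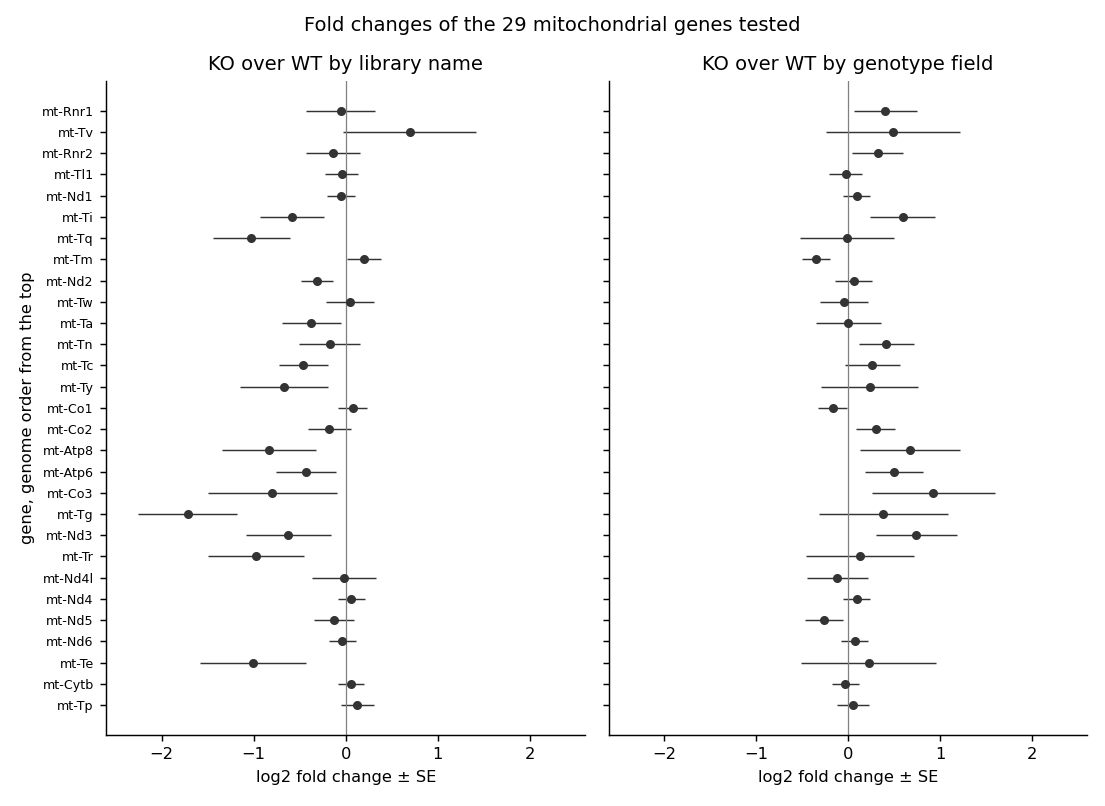
Log2 fold change of KO over WT, with its SE, of the 29 mitochondrial genes tested, by library name and by the genotype field (edgeR's quasi-likelihood fit over 14708 genes). No gene passed an adjusted p of 0.05 in either reading; mt-Tg, at -1.72 by library name, lies at 0.38 by the genotype field.

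Nuclear genes that serve mitochondrial RNA did not pass the main test either. They were taken as 6 lists, covering transcription and the nucleoid, RNA cleavage and modification, mRNA stability, aminoacyl-tRNA synthetases, biogenesis regulators and nuclear subunits of the respiratory complexes. Of the 147 genes tested, 0 passed an adjusted p of 0.05 under either reading (edgeR's quasi-likelihood test), and at an unadjusted p under 0.05 there were 1 by library name and 9 by the genotype field. These are 0.68% and 6.12% of the 147, beside 1.49% and 5.69% of all genes. DESeq2 gave 0 by library name and 1 by the genotype field (Ndufs7), and limma-voom 0 in both. With replicate numbers fitted as pairs, 2 of the 147 passed by the genotype field, beside 51 of 14708 genes. They were Esrra and Ndufs7, which also passed without pairs when low counts were not filtered (adjusted p of 0.0481 and 0.0353, edgeR's quasi-likelihood test), and which were singled out after their values were seen. Esrra, a nuclear receptor that drives genes of oxidative metabolism, had by that field 86.5, 98.6 and 93.0 CPM in KO and 47.9, 72.7 and 55.2 CPM in WT libraries. The groups did not overlap. Its log2 fold change of KO over WT in the paired fit was 0.70 (SE 0.14) at an adjusted p of 0.0307, against an adjusted p of 0.595 without pairs and with the filter (edgeR's quasi-likelihood test). Ndufs7, a complex I subunit of the electron path to ubiquinone, had by that field 202, 281 and 191 CPM in KO and 145, 146 and 122 CPM in WT libraries, again without overlap.

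List by list, the directions of the nuclear genes differed between the readings, and in some lists turned when a library was left out. For comparison, of all 14708 genes tested 6694 were higher and 8014 lower in KO libraries by library name, and 7075 and 7633 by the genotype field. Among the 17 biogenesis regulators tested, 3 had a higher and 14 a lower fitted level in KO libraries by library name, with a median log2 fold change of -0.18, and 5 and 12 without WT replicate 1. By the genotype field 7 were higher and 10 lower, against 15 and 2 without WT replicate 1 and 11 and 6 without WT replicate 2. Ppargc1a, a coactivator of mitochondrial biogenesis, had 53.3, 39.8 and 64.8 CPM in KO replicates 1 to 3, against 97.9, 57.5 and 80.1 CPM in WT replicates 1 to 3. The groups overlap, and its adjusted p by library name was 0.99993 (edgeR's quasi-likelihood test). Among the 52 nuclear subunits of complexes I, III, IV and V tested, 45 were higher and 7 lower in KO libraries by library name, with a median of 0.13, against 29 and 23 without WT replicate 1. By the genotype field 31 were higher and 21 lower, against 17 and 35 without WT replicate 1. Uqcrh, the hinge subunit of complex III, averaged 1133 ± 157 CPM in KO and 900 ± 141 CPM in WT libraries by library name (SD, n = 3 each). Its log2 fold change was 0.33 (SE 0.17) by library name and -0.14 (SE 0.19) by the genotype field.

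The remaining 4 lists held genes that act on mitochondrial DNA and RNA directly. By library name 13 of 20 genes of transcription and the nucleoid, 14 of 23 of cleavage and modification, 12 of 16 of mRNA stability and 12 of 19 synthetases had a higher fitted level in KO libraries, and by the genotype field these were 11, 9, 6 and 10. By library name, 3 of these 4 balances lost or turned their direction without 1 library. Without KO replicate 1, transcription and the nucleoid had 9 higher and 11 lower and mRNA stability 8 and 8, and without WT replicate 1 the synthetases had 9 and 10. Among the genes with the lowest p by library name, Mgme1, a nuclease of mitochondrial DNA, averaged 21.5 ± 1.54 CPM in KO and 25.6 ± 1.44 CPM in WT libraries. Cdk5rap1, which modifies mitochondrial tRNAs, averaged 13.5 ± 0.816 CPM in KO and 17.3 ± 2.72 CPM in WT libraries. Tefm, the transcription elongation factor, averaged 20.6 ± 0.492 CPM in KO and 17.3 ± 2.70 CPM in WT libraries. Tfam, which packs mitochondrial DNA and starts its transcription, averaged 50.0 ± 4.52 CPM in KO and 43.9 ± 5.80 CPM in WT libraries. Mrm1, which methylates the large rRNA, averaged 31.9 ± 1.17 CPM in KO and 26.9 ± 2.41 CPM in WT libraries (SD, n = 3 each). None of these 5 passed the test. The log2 fold change of KO over WT was -0.25 for Mgme1 by library name and 0.19 by the genotype field, and -0.37 and -0.05 for Cdk5rap1. It was 0.24 for Tefm, 0.19 for Tfam and 0.25 for Mrm1 by library name, and -0.14, -0.17 and -0.11 by the genotype field, so all but that of Cdk5rap1 changed sign between the readings.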

How the data were processed

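Raw counts per gene were deposited by the authors for 54838 genes in 6 libraries, without normalisation. The submitters' processing notes name featureCounts 1.5.0-p3, HISAT2 2.1.0, MultiQC 1.7 and FastQC 0.11.5, and the build GRCm38. Which annotation was counted, over which features and strands, and how reads that match several places were treated are details not given in the sources used here. Per the labels' protocols, 1 µg of total RNA went into each library, and the kit was TruSeq RNA Library Prep Kit v2. This kit enriches polyadenylated RNA and keeps no strand information. Overlapping genes on opposite strands therefore cannot be told apart, and the counts on a gene may include RNA of its opposite strand.

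Identifiers were matched to symbols and positions for 54723 of 54838 genes (GENCODE M21), and 31167 genes had no count. CPM are counts over the library total. Copies were found with blastn 2.17.0 (word size 16) among all M21 transcripts, at 90% identity over 200 bases or more, and called near-identical from 99%. All genes were fitted with edgeR 4.0.16 in R 4.3.3 (TMM scaling, filterByExpr, robust quasi-likelihood test, Benjamini-Hochberg, threshold 0.05), with DESeq2 1.42.0 and limma 3.58.1 as alternatives. The fits were tested on simulated data. Shares were compared by exact permutation tests. Alternatives were other scalings, no filter, replicate block, a covariate for the 2 series of library names, and leaving out libraries. All pairs of libraries differed beyond sampling noise. The libraries that share a replicate number deviated together from their group means (correlations 0.157, 0.162 and 0.121 by library name, 0.269, 0.227 and 0.121 by the genotype field). Pairs of unlike number ran from -0.168 to 0.003 by library name and from -0.297 to 0.134 by the genotype field. There WT replicate 2 with KO replicate 3, at 0.134, was above WT replicate 3 with KO replicate 3, at 0.121, so the pairing is not clear for every pair. KO replicate 1 and WT replicate 1 are also the only libraries of the series named Old, so pair and series cannot be told apart there. The numbers, which come from the sample titles, were taken as pairs only in the alternatives that say so, not in the main fit.

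The genes named are all mitochondrial genes, Prkce and, of each nuclear list, up to 4 with the lowest p by library name. Esrra, Ndufs7 and Lars2 fall outside this rule, and their values were known when they were picked. The members, lists and tests were chosen with earlier results of these data known.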

Additional observations from a re-analysis of the deposited data

How the results depend on the processing

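No gene of the mitochondrial genome passed an adjusted p of 0.05 under any of the 15 alternatives run in each reading. That holds for other scalings, DESeq2, limma-voom, no filter on low counts, the replicate block, the library series as covariate and leaving out libraries. The replicate block moved the count of all genes called by the genotype field from 2 to 51 and changed no other call of the results given here, apart from Esrra and Ndufs7, which also passed without the filter. That count was also 27 with DESeq2, 1 with limma-voom, 25 without the filter and 7 with the series covariate, and 0 to 2 when 1 library was left out. By library name it was 1 without the filter, 0 to 4 when 1 library was left out, and 6 without WT replicate 2 and KO replicate 3, an alternative chosen after seeing the data, like every alternative that leaves out 2 libraries or adds the nuclear copies.

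Differences of shares, KO minus WT in percentage points, changed sign under some alternative for all 5 shares by library name and for tRNA by the genotype field. When 1 library was left out they ran, by library name, from -0.53 to 0.52 for the whole share, -0.43 to 0.52 for mRNA, -0.51 to 0.29 for rRNA, -0.0095 to 0.00018 for tRNA and -0.32 to 0.068 for the share of mt-Nd6 in mitochondrial mRNA. By the genotype field the tRNA difference ran from -0.0046 to 0.0055. The others kept their sign there, at -1.11 to -0.051 for the whole share, -1.18 to -0.52 for mRNA, 0.077 to 0.67 for rRNA and 0.18 to 0.45 for mt-Nd6. As differences of medians they were 0.20 for the whole share, -0.071 for mRNA and 0.0096 for mt-Nd6 by library name, and -0.0024 for tRNA by the genotype field. In the numbered series of libraries alone the whole share differed by 0.35 by library name. Without WT replicate 2 and KO replicate 3, the whole share differed by -0.77, mRNA by -0.46, tRNA by -0.013 and mt-Nd6 by 0.17 by library name, and without KO replicate 2 and WT replicate 3 tRNA differed by -0.0077 by the genotype field.

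Of the log2 fold changes by library name, that of mt-Rnr1 was 0.087 with limma-voom, 0.084 with the replicate block and 0.077 with the series covariate, and ran from -0.40 to 0.35 with 1 library left out. So did mt-Rnr2, from -0.40 to 0.26, and mt-Co3, from -1.16 to 0.41, and to -1.31 without WT replicate 2 and KO replicate 3. By the genotype field these ranges were 0.0042 to 0.55 for mt-Rnr2, -0.17 to 0.19 for mt-Nd2, -0.17 to 1.28 for mt-Co3 and -0.13 to 1.38 for mt-Tg. Without KO replicate 2 and WT replicate 3 the values were -0.0048 for mt-Rnr2, -0.23 for mt-Nd2, -0.22 for mt-Co3 and -0.55 for mt-Tg. Apart from the libraries left out, the cause was not tested. Depth limits most the 11 tRNA genes with few counts, and also mt-Nd4l, mt-Atp8 and mt-Tq, which had under 100 counts in most libraries.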

Other observations

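Lars2, the nuclear gene for the mitochondrial leucyl-tRNA synthetase, varied far more across libraries than the other synthetases, and was singled out after its values were seen. It had 2851, 5377 and 3971 CPM in KO replicates 1 to 3, against 1280, 3634 and 6893 CPM in WT replicates 1 to 3. Like mt-Rnr1 and mt-Rnr2, it was lowest in WT replicate 1 and highest in WT replicate 3. Between these extremes the order differed: KO replicate 2 was above KO replicate 3 and WT replicate 2 for Lars2, but below both for mt-Rnr1 and mt-Rnr2. The summed level of the other synthetases stayed at 412 to 456 CPM in KO and 413 to 457 CPM in WT libraries. The log2 fold change of Lars2, KO over WT, was 0.02 (SE 0.63) by library name and 0.36 (SE 0.59) by the genotype field. How the levels of Lars2 and of the rRNAs are related was not tested, nor whether all counts on Lars2 came from its own transcript.

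The stop codons of the mRNAs also differ: mt-Nd1 and mt-Nd2 end in TAG and the other 8 complete ones in TAA.

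The 8 other nuclear copies found were at 90.7% to 97.6% identity. They had a summed 1.29 to 2.35 CPM in KO and 1.90 to 2.28 CPM in WT libraries. Among the copies found, the counts thus lie almost wholly on the near-identical stretch. Copies shorter than the length set for the search, and copies outside annotated transcripts, were not looked for, and counts on them were not tested.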
